A study of Sus scrofa with 24 samples.

Results

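Mitochondrial fatty acid oxidation was followed through the mRNA levels of 10 enzymes in the livers of pig fetuses: ACAA2, ACADM, ACADL, ACADSB, ACADVL, ACADS, HADHA, HADHB, CPT1A and CPT2. They were chosen by name, as the probe sets that carry one of these gene symbols in the annotation of the array, and they make up 10 of the 13755 genes named there and 17 of its 47845 probe sets. The livers came from 24 fetuses at 63 dpc (days post conception) of an F2 cross of German Landrace and Pietrain, each measured on 1 Affymetrix Snowball array. The study set growth-restricted (IUGR) fetuses against littermates of normal weight (AGA), but the labels give a fetus number only, so growth group, sex and dam of a liver were not mapped and no groups were compared. All results describe variation over the 24 livers. Every fetus had a sibling in the set, so the livers were not independent, and p-values over them are approximate.

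Long-chain fatty acids enter the mitochondrion as carnitine esters, which CPT1A makes at the outer membrane and CPT2 turns back into acyl-CoA inside. Each turn of beta-oxidation then starts with an acyl-CoA dehydrogenase suited to the chain length, goes on through hydration and a second oxidation, which for long chains lie in the trifunctional protein of HADHA and HADHB, and ends with a thiolase that releases acetyl-CoA, for medium chains ACAA2. The liver uses this pathway for energy and, in many mammals, for ketone bodies. A fetus is fed mainly glucose through the placenta, and hepatic fatty acid oxidation is known to increase around birth.

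Of the 10 enzymes, 8 had a probe set above the limit used here, a log2 level of at least 6 in at least 18 of the 24 livers, which 9 of the 17 probe sets met. Levels are deposited log2 values, and a gene with several probe sets is given by the one of highest mean. The array's background control probe sets reached a 95th percentile of 6.52 to 6.89 on the different arrays, so levels of this size overlap with the upper part of the background. Levels of different probe sets were not compared with each other, because probes differ in brightness.

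The carnitine shuttle could hardly be followed. The best of the 4 CPT1A probe sets (SNOWBALL_000601_st) lay between 4.65 and 5.57 with a median of 5.10, and the CPT2 probe set (SNOWBALL_009199_s_st) between 4.99 and 5.70 with a median of 5.37. Both stayed below the limit in every liver, as did the other 3 CPT1A probe sets. The CPT1A probe sets had an r with each other from -0.32 to 0.23 over the 6 pairs. In the fit of all probe sets CPT1A had an r of -0.32 with ACAA2 and 0.07 with ACADM (limma adjusted p = 0.789 and 0.943), and CPT2 of -0.25 and 0.04 (0.862 and 0.966), so neither took a measurable side. Neither gene entered the counts below.

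Of the acyl-CoA dehydrogenases, ACADVL, which acts on very long chains (SNOWBALL_014846_st), had a lowest level of 5.70 in fetus 327, a median of 6.46 and a highest level of 6.69, and reached the limit in 21 livers. Its range came from a few low livers, since the livers between its lower and upper quartile differed by no more than 1.16-fold. Its 2 other probe sets stayed below the limit. ACADL, the long-chain enzyme (SNOWBALL_018178_st), ranged from 7.28 in fetus 281 over a median of 7.64 to 8.08 in fetus 370. ACADM, the medium-chain enzyme (SNOWBALL_009224_st), ranged from 6.19 in fetus 312 over a median of 6.87 to 7.51 in fetus 370. Its lower levels overlapped with the upper background. ACADM and ACADL thus had their highest level in the same liver. ACADS, the short-chain enzyme (SNOWBALL_016704_st), ranged from 6.11 in fetus 352 over a median of 6.58 to 6.91 in fetus 313, all within or near the upper background. ACADSB, which acts on short and branched chains and serves the breakdown of isoleucine (SNOWBALL_017255_st), ranged from 8.11 in fetus 311 over a median of 8.60 to 8.94 in fetus 283. A second ACADSB probe set above the limit (SNOWBALL_025010_st) ranged from 7.08 to 7.84 and was also lowest in fetus 311.

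Both subunits of the trifunctional protein varied little. HADHA, which carries the hydratase and dehydrogenase steps (SNOWBALL_005385_st), ranged from 9.17 over a median of 9.39 to 9.62, a 1.37-fold span. HADHB, its thiolase subunit (SNOWBALL_005103_st), ranged from 7.65 over a median of 7.91 to 8.08, a 1.35-fold span. Of all filtered probe sets, 9.71% had a smaller span than HADHA and 7.26% a smaller span than HADHB, while the median span was 1.65-fold. ACAA2 (SNOWBALL_002663_st) stood at the other end, from 6.75 in fetus 283 over 7.83 to 8.93 in fetus 338, and 98.2% of probe sets had a smaller span. ACADM exceeded 91.4% of them with its 2.50-fold span, and ACADL with 1.75-fold, ACADS with 1.75-fold, ACADSB with 1.79-fold and ACADVL with 1.97-fold lay between 60.1% and 77.5%.

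**Figure D1:**
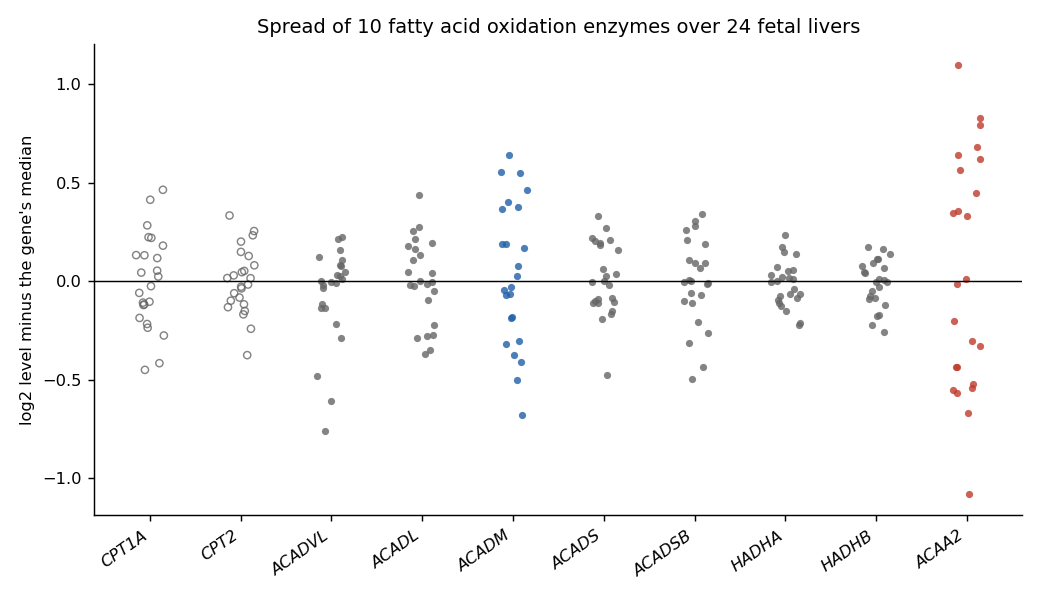
Log2 level of each enzyme minus its own median (vertical axis), 1 point per liver, in the order of the pathway from the carnitine shuttle to the thiolase; open points mark CPT1A and CPT2, which were below the limit of 6 in every liver. ACAA2 (red) spread over the widest range and ACADM (blue) over the next, while HADHA and HADHB stayed within 1.37-fold and 1.35-fold.

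Which enzymes sided with ACAA2 and which with ACADM was asked next, since the study's fatty acid oxidation genes include both and their levels ran opposite ways, at an r of -0.65 over the 24 livers. The study picked ACAA2, ACADM, ACADL and ACADSB on these same arrays for qPCR, which it reported to correspond with the array levels. It reported ACADM, ACADL and ACADSB as lower in IUGR, so relations among the picked genes are not independent evidence. The part of growth group in these relations was not tested. Opposite correlations of ACAA2 and ACADM with ceramides and phosphatidylethanolamines were also reported there. Every filtered probe set was fitted on the level of each gene with limma, with Benjamini-Hochberg adjustment over all probe sets. A gene is said to rise with another when its level was higher in livers with more of the other and the adjusted p was under 0.05, and to fall with it in the opposite case. Siding was read from a fit on a score, the standardized ACAA2 level minus the standardized ACADM level. The score ran from -3.31 in fetus 283 to 2.49 in fetus 355. It is made of both levels, so a gene's r with it follows from its r with ACAA2 and with ACADM. A gene related to ACADM alone would also move with the score, so calls with it are not further evidence. An enzyme that falls with this score is correlated more positively with ACADM than with ACAA2.

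ACADL and ACADSB sided with ACADM, and no enzyme sided with ACAA2. Of all probe sets only 0.341% rose with ACAA2 and 2.88% with the score, so the lack of an enzyme on the ACAA2 side says little about the enzymes. ACADL rose with ACADM at an r of 0.80 and a Spearman rho of 0.81, each with a permutation p of 1e-05, the smallest that the resamples allow. It changed by 0.47 ± 0.08 (SE) log2 units per log2 unit of ACADM, with a limma adjusted p of 0.000758. ACADSB rose with ACADM at an r of 0.75 and a rho of 0.73, with permutation p-values of 1e-05 and 9e-05, and changed by 0.46 ± 0.09 log2 units per unit, with a limma adjusted p of 0.00162. With fetuses 312 and 370, the 2 most extreme for ACADM, left out, r was 0.74 for ACADL and 0.68 for ACADSB. Among all probe sets 9.41% rose and 6.24% fell with ACADM, so 2 risers of 6 enzymes stand against a wide background. In a ranking of 3378 genes by their r with ACADM, ACADL was at place 7 and ACADSB at place 18. With the first principal component of the filtered probe sets as a covariate, neither ACADL (limma adjusted p = 0.324) nor ACADSB (0.0651) was called.

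Both also fell with the score, ACADL at an r of -0.61 (limma adjusted p = 0.0339) and ACADSB at an r of -0.64 (limma adjusted p = 0.0243), where 2.49% of all probe sets fell and 2.88% rose, which is 146 and 169, and 137 and 254 with aligned array medians. These calls were near the threshold. Leaving out fetus 303, 311, 312, 355 or 370 took ACADL past it, with an adjusted p of up to 0.0685 over all livers left out in turn, and leaving out fetus 283 gave ACADSB an adjusted p of 0.0531. Neither was called on ranks, at limma adjusted p-values of 0.0799 and 0.069, nor without fetuses 311 and 312, the most extreme livers on the first principal component, with 0.0853 and 0.0725.

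**Figure D2:**
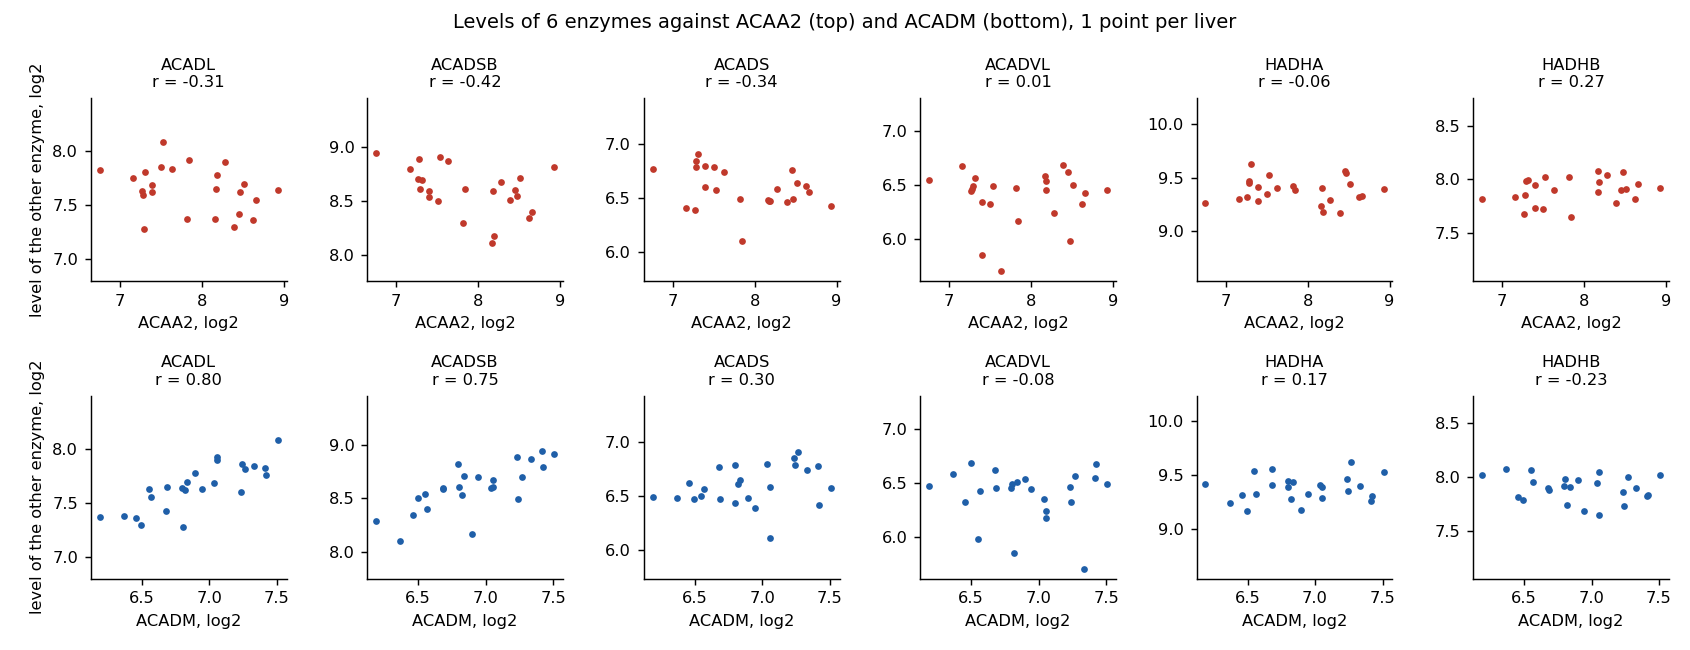
Level of 6 enzymes (vertical axis, log2) against ACAA2 (top row, red) and ACADM (bottom row, blue; horizontal axes, log2), 1 point per liver, with every vertical axis spanning the same number of log2 units. ACADL and ACADSB climb with ACADM at an r of 0.80 and 0.75, while their r with ACAA2 was -0.31 and -0.42 and the 4 other enzymes show r between -0.34 and 0.30.

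Against ACAA2 itself none of these 6 enzymes passed the test. ACADSB had an r of -0.42 (limma adjusted p = 0.318), ACADS of -0.34 (0.489), ACADL of -0.31 (0.540), HADHA of -0.06 (0.953), ACADVL of 0.01 (0.991) and HADHB of 0.27 (0.663). Few probe sets did so at all, 0.341% rising and 0.29% falling with ACAA2, or 37 of 5867. At an unadjusted limma p under 0.05 the fit on ACAA2 held 773 probe sets (13.2%). The 37 were 20 rising and 17 falling, beside 64 and 26 with aligned array medians. ACADM was among those that fell, with a limma adjusted p of 0.0439 in this fit and place 13 of 3378 genes from the negative end. That call was lost when any of 16 livers was left out, all but fetuses 281, 311, 312, 327, 338, 363, 376 and 384, with adjusted p-values from 0.0106 to 0.102 over the 24 fits. In the fit on ACADM the same r of -0.65 had an adjusted p of 0.00511, because far more probe sets varied with ACADM, and the call was kept in all 24 fits.

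With ACAA2 and ACADM together in 1 fit, the partial r with ACADM was 0.82 for ACADL (limma adjusted p = 0.00069) and 0.68 for ACADSB (0.00592). The partial r with ACAA2 was then 0.45 for ACADL (0.313) and 0.12 for ACADSB (0.839), both positive where the simple r had been negative, and neither passed. On the probe sets used, their negative r with ACAA2 was thus not seen at a given level of ACADM. The other ACADSB probe set above the limit (SNOWBALL_025010_st) had a simple r of -0.55 with ACAA2. Its sign at a given level of ACADM was not examined, so the change for ACADSB rests on a single probe set.

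The 4 other enzymes took no measurable side. With the score, ACADS had an r of -0.35 (limma adjusted p = 0.291), HADHA of -0.13 (0.781), ACADVL of 0.05 (0.907) and HADHB of 0.27 (0.493). With ACADM, ACADS had an r of 0.30 (0.318), HADHA of 0.17 (0.651), ACADVL of -0.08 (0.822) and HADHB of -0.23 (0.522). By sign alone ACADS and HADHA lay toward ACADM and HADHB toward ACAA2, without passing the test. These values do not show that the genes were unrelated, and the small spans of HADHA and HADHB and the low levels of ACADS and ACADVL limit what could be seen. The lower levels of ACADM also overlapped with the upper background.

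**Figure D3:**
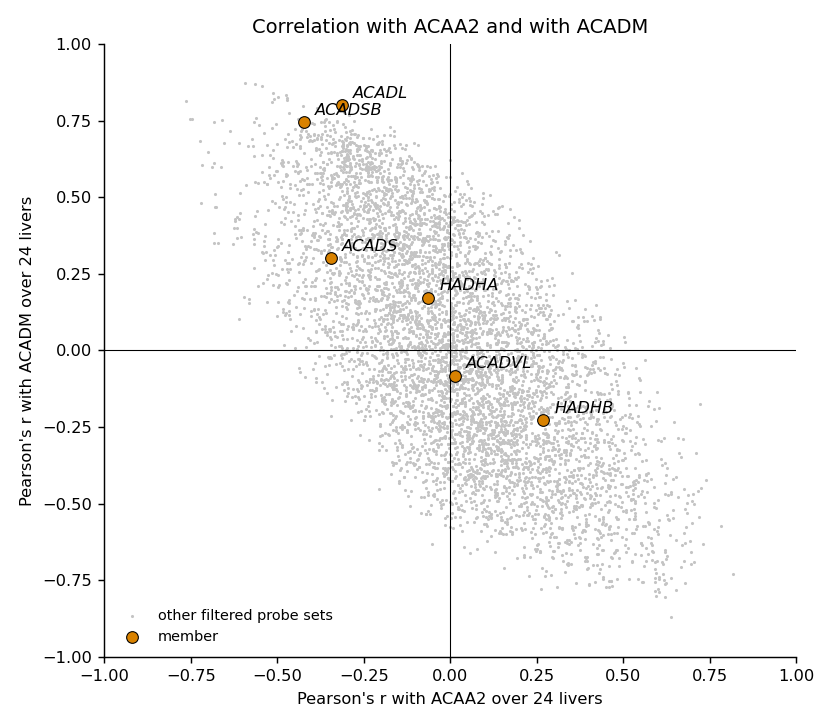
Pearson's r with ACAA2 (horizontal axis) and with ACADM (vertical axis) over the 24 livers, for every filtered probe set (grey) and for 6 enzymes (orange). ACADL and ACADSB lie at the upper edge of the cloud, at an r of 0.80 and 0.75 with ACADM, and HADHA and ACADVL near its centre; the cloud slopes downward, and ACAA2 and ACADM themselves had an r of -0.65.

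The probe sets of ACADSB could be set side by side. The pair above the limit both rose with ACADM, at an r of 0.75 and 0.64 (limma adjusted p = 0.00162 and 0.0114), and both fell with the score, at -0.64 and -0.65 (0.0243 and 0.0243). With ACAA2 the pair had an r of -0.42 and -0.55, and neither passed (limma adjusted p = 0.318 and 0.156). The third ACADSB probe set (SNOWBALL_047625_st), at levels of 3.05 to 3.94, had an r of 0.58 with ACADM and did not pass in the fit of all probe sets (adjusted p = 0.0956). The ACADVL probe set above the limit and its dimmer ones followed each other weakly, at an r of 0.06 and 0.34, so the level of ACADVL rests on 1 probe set.

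Among themselves, the 8 enzymes formed 28 pairs with a median r of 0.02. Between the 15 pairs without ACAA2 and ACADM, r ran from -0.27 for ACADL and ACADVL to 0.51 for ACADL and ACADSB. ACADL and ACADSB had a rho of 0.47, with permutation p-values of 0.0114 for r and 0.0207 for rho. ACADSB rose with ACADL in the fit on ACADL (limma adjusted p = 0.0429), but ACADL did not pass in the fit on ACADSB (0.128). These fits had unequal backgrounds, as 21.2% of all probe sets varied with ACADL in either direction and 3.67% with ACADSB.

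HADHA and HADHB, whose proteins form 1 complex and whose genes are next to each other in the pig genome annotation (Sscrofa11.1) with no other protein-coding gene between, had an r of 0.30 and a rho of 0.32. Neither passed in the fit on the other, at limma adjusted p-values of 0.765 and 0.700. HADHA had a higher r with ACADSB, at 0.39 (permutation p = 0.0605), and with ACADS, at 0.38 (permutation p = 0.0661), and neither pair passed in limma. Without the 2 livers farthest out on ACADSB the first was 0.16, and without those on ACADS the second was 0.35. HADHA and HADHB had an r of 0.19 without the 2 livers farthest out on HADHA. Across the array, limma called 0 probe sets in the fits on HADHA, HADHB, ACADS and ACADVL (0% each). At an unadjusted p under 0.05 these fits held 450, 500, 287 and 322 of 5867 probe sets.

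**Figure D4:**
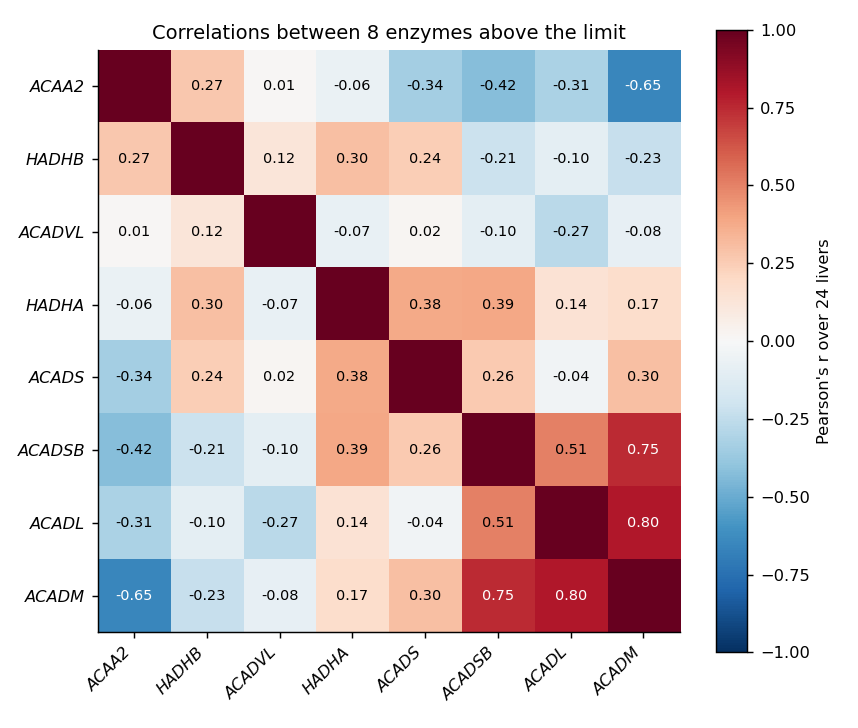
Pearson's r over 24 livers between each pair of the 8 enzymes above the limit (colour scale from -1, blue, to 1, red; both axes list the genes). The corner of ACADSB, ACADL and ACADM holds r of 0.51 to 0.80, ACAA2 has negative r with ACADM, ACADSB, ACADS and ACADL, and the remaining pairs lie between -0.27 and 0.39.

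Outside the 10 enzymes, the genes most like ACADM were not beta-oxidation enzymes. The 5 with the most positive r were PTPRD, a receptor tyrosine phosphatase (0.87), OTC, the urea cycle enzyme ornithine transcarbamylase (0.84), RDX, which links actin to the membrane (0.83), RELN, an extracellular matrix glycoprotein (0.83), and ATAD2B (0.82). OTC ranged from 8.17 over 8.98 to 9.25. The 5 with the most negative r were IGFBP2, a binding protein of insulin-like growth factors (-0.87), TXNIP, an inhibitor of thioredoxin (-0.78), WDR1, a cofactor of actin disassembly (-0.78), EFNA1, an ephrin (-0.77), and RPS19, a ribosomal protein (-0.76). IGFBP2 ranged from 7.66 over 8.57 to 9.94 and fell by 1.44 ± 0.16 (SE) log2 units per unit of ACADM, with a limma adjusted p of 5.5e-06. The other 9 had limma adjusted p-values of 9.04e-06 to 0.00357.

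The genes with the most positive r with ACAA2 were again of other functions. CHMP5, which takes part in membrane sorting, had an r of 0.78, the ribosomal protein RPL7A of 0.73, the natriuretic peptide clearance receptor NPR3 of 0.72, the aldo-keto reductase AKR1C1 of 0.72 and the glutaminyl-tRNA synthetase QARS of 0.71. The most negative were CPS1, which starts the urea cycle (-0.75), the complement component C8B (-0.72), the lipopolysaccharide binding protein LBP (-0.72), IVD, the isovaleryl-CoA dehydrogenase of leucine breakdown (-0.72), and BDH1, which interconverts the ketone bodies acetoacetate and beta-hydroxybutyrate (-0.69). CPS1 ranged from 7.72 over 9.27 to 9.97 and fell by 0.71 ± 0.12 (SE) log2 units per unit of ACAA2, with a limma adjusted p of 0.00839. The other 9 had limma adjusted p-values of 0.0146 to 0.0439. These genes were ranked by the same r that describes them, so the values are descriptions.

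Related pathways were read from lists of genes, of which 73 were above the limit. With ACADM 10 of the 73 rose and 3 fell, with ACAA2 1 rose and 2 fell, and with the score 2 rose and 3 fell. Over all 3377 genes with a filtered probe set other than ACAA2 and ACADM, 9.95% rose and 6.31% fell with ACADM, 0.355% and 0.296% with ACAA2 and 2.81% and 2.37% with the score. The counts for ACADM thus lay near those of all genes. IVD, BDH1 and TXNIP passed in all 3 fits, TXNIP in the opposite direction to the others. The score is made of ACAA2 and ACADM, so the fit on it is not a separate test. IVD, an acyl-CoA dehydrogenase like the members, ranged from 7.42 over 7.88 to 8.26, rose with ACADM (r = 0.61, limma adjusted p = 0.0141), fell with ACAA2 (-0.72, 0.0215) and fell with the score (-0.73, 0.00464). Of the 3 other acyl-CoA dehydrogenases above the limit it alone passed, while ACAD8 had an r of -0.38 and ACAD9 of 0.00 with the score. BDH1 ranged from 6.12 over 7.10 to 7.60 and fell with the score at an r of -0.71 (limma adjusted p = 0.00472). OXCT1, which uses ketone bodies outside the liver, had an r of -0.24 and did not pass.

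In the carnitine shuttle and acyl-CoA activation list, 3 of 8 genes rose with ACADM, where 9.95% of all genes did, and none fell. FABP1, the fatty acid binding protein of the liver, had the widest range, from 7.08 over 8.67 to 9.12, and an r of 0.68 with ACADM (limma adjusted p = 0.00335) and of -0.55 with the score (0.0475). ACSL3 and ACSL4, which activate fatty acids to acyl-CoA, had an r of 0.64 and 0.54 with ACADM (0.00892 and 0.0349) and did not pass with the score. The acylcarnitine carrier SLC25A20 and the synthetase ACSL5 had an r of 0.12 and 0.31 with the score and passed no test. The median r of this list with ACADM was 0.37, beside 0.01 over the 3377 genes. The study reported FABP1, ACSL3 and ACSL4, and also ACADM, as lower in IUGR on these same arrays. The 3 calls with ACADM and this median are thus not independent evidence.

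Later steps did not move as a block. DECR1, which handles unsaturated chains, rose with ACADM (r = 0.57, limma adjusted p = 0.0272), and the thioesterase ACOT13 fell with it (-0.55, 0.0351). The hydratase ECHS1 and the dehydrogenase HADH had an r of -0.24 and 0.35 and did not pass. ETFA, a subunit of the electron transfer flavoprotein that takes up electrons from the acyl-CoA dehydrogenases, rose with ACADM (0.57, 0.029), while its partner ETFB had an r of 0.00 and ETFDH, which passes the electrons on, of 0.47 (0.124). None of these genes passed with the score.

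The remaining lists each held 1 call or none in each direction with ACADM, beside 9.95% rising and 6.31% falling over all genes. Among 7 peroxisomal genes only EHHADH rose with ACADM (r = 0.54, limma adjusted p = 0.0344). ABCD3, ACAA1 and ACOX2 passed no test, with an r with the score of -0.37, 0.23 and 0.49. Of 6 regulators only TFAM, which maintains mitochondrial DNA, rose with ACADM (0.57, 0.024). PPARA, the receptor that controls many genes of this pathway in adult mouse liver, had an r of 0.15 with ACAA2 and -0.09 with ACADM. NRF1, PRKAA1 and HNF4A had an r with the score of -0.18, 0.21 and 0.34, none past the test.

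Of 10 other PPARA target genes listed, 7 were named on the array and 3 were above the limit. Of these 3, 2 rose with the score, where 2.81% of all genes did, and so few genes cannot speak for PPARA targets as a set. PLIN2, which coats lipid droplets, ranged from 7.63 over 8.24 to 8.84 and rose with the score at an r of 0.56 (limma adjusted p = 0.0464). TXNIP ranged from 7.80 over 8.37 to 9.20, rose with ACAA2 (r = 0.65, limma adjusted p = 0.0429), fell with ACADM (-0.78, 0.000493) and rose with the score (0.79, 0.000791). VNN1, a pantetheinase, had an r of 0.08 with the score and passed no test, nor did PLIN2 with ACADM (-0.47, 0.0691). Neither PLIN2 nor TXNIP is an enzyme of fatty acid oxidation.

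Of 14 TCA cycle genes 1 rose with ACADM, DLD, a subunit shared by several dehydrogenase complexes (r = 0.64, limma adjusted p = 0.0114), and none passed with the score. Beside DLD, the extremes of r with the score were -0.36 for SUCLG2, 0.37 for IDH3B and 0.42 for MDH2. Of 21 respiratory chain and ATP synthase genes 1 fell with ACADM, NDUFB9 (-0.55, 0.0358), and the extremes with the score were -0.34 for ATP5J2 and ATP5E, 0.45 for NDUFB9 and 0.46 for NDUFS4.

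**Figure D5:**
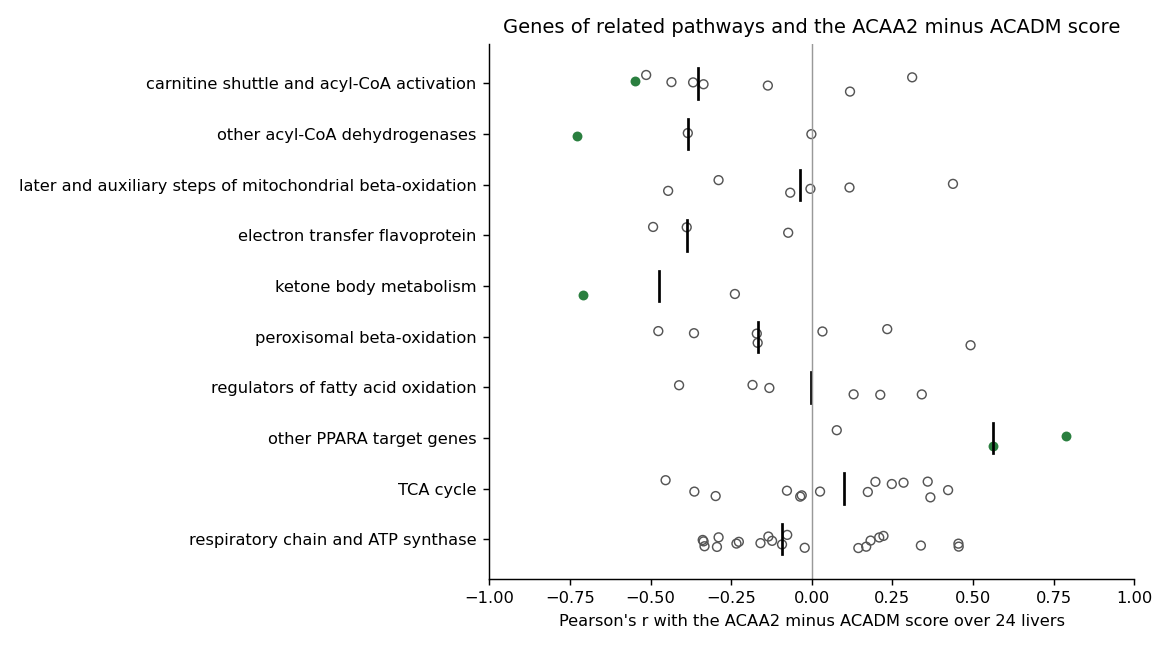
Pearson's r of each gene above the limit with the ACAA2 minus ACADM score (horizontal axis) in 10 pathway lists (rows), with filled points for genes whose limma adjusted p was under 0.05 and bars at the list medians. The 5 filled points are FABP1, IVD and BDH1 on the ACADM side and PLIN2 and TXNIP on the ACAA2 side.

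Measures of the whole array and of cell types moved with some enzymes. These are 81 relations, with permutation p-values given unadjusted. The first principal component of the filtered probe sets, which held 20.9% of their variance, had an r of 0.83 with ACADL and 0.76 with ACADM (rho 0.84 and 0.78, permutation p = 1e-05 for both r), 0.52 with ACADSB (rho 0.45, permutation p = 0.00858) and -0.24 with ACAA2 (rho -0.25, permutation p = 0.254). Without fetuses 311 and 312 these were 0.83, 0.64, 0.24 and -0.28. With this component as a covariate the partial r with ACADM fell to 0.47 for ACADL (limma adjusted p = 0.324) and 0.63 for ACADSB (0.0651), so neither was called, and neither was called with the score (adjusted p = 0.524 and 0.199). The r between ACAA2 and ACADM was then -0.74, with an adjusted p of 0.00572 in the fit on ACADM.

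Of the 18 hepatocyte markers named on the array 17 were above the limit, with summed linear signals of 56524 to 71640 over the livers. The mean standardized level of these markers had an r of 0.64 with HADHA (rho 0.59, permutation p = 0.0007) and 0.61 with ACADSB (rho 0.51, permutation p = 0.00163). Without the 2 livers farthest out it was 0.52 for HADHA and 0.30 for ACADSB, and 0.29 with ACADM over all livers. Of 9 named macrophage markers 3 were above the limit, with summed signals of 990 to 1416, and their mean level had an r of -0.44 with ACADM, -0.41 with ACADL and -0.44 with ACADSB (rho -0.39, -0.40 and -0.35, permutation p = 0.0307, 0.0437 and 0.0324). CD163, CD14, MARCO, VSIG4, CD5L and LYZ were below it. Of 7 granulocyte markers 4 were above it, with signals of 598 to 6220. Their r was -0.45 with ACADM, -0.48 with ACADSB, -0.42 with ACADL and 0.42 with HADHB. In this order rho was -0.16, -0.11, -0.38 and 0.36, and the permutation p for r was 0.0235, 0.0172, 0.0437 and 0.0352. Without the 2 livers farthest out, r was 0.13, 0.10, -0.14 and 0.18. Of 15 erythroid markers 13 were above the limit, with signals of 12621 to 17865, and had an r of 0.45 with ACADM (rho 0.44, permutation p = 0.0283). Of 11 stellate and mesenchymal markers 6 were above it, with signals of 713 to 2351, and had an r of 0.47 with HADHA (rho 0.52, permutation p = 0.0215), 0.53 without the 2 livers farthest out. Of 11 endothelial markers 6 were above it, with signals of 1115 to 1480, and had an r of -0.43 with ACADL and -0.40 with ACADSB (rho -0.37 and -0.43, permutation p = 0.0348 and 0.0549), and -0.29 and -0.36 without the 2 farthest out. No lymphocyte or biliary marker was above the limit. In whole liver a smaller number of cells of a type and less RNA per cell cannot be told apart, and the part of these measures in the relations above was not tested.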

How the data were processed

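Liver RNA of 24 pig fetuses was hybridized to 1 array each. The authors ran RMA in the Expression Console software and deposited the resulting log2 levels, after a quality check in GCOS 1.1.1. Replicates were not pooled. An array has no read depth, and the number of arrays limits precision. Gene symbols came from the platform annotation.

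The deposited log2 values were used as they are. A probe set was kept at a log2 level of at least 6 in at least 18 of 24 livers, which left 5868. Fits used limma 3.58.1 in R 4.3.3 (lmFit and eBayes) on ACAA2, ACADM and their score, and on each other enzyme above the limit, leaving out the gene's own probe sets, with Benjamini-Hochberg adjustment over all probe sets and a threshold of 0.05. Probe sets below the limit were tested in a fit of all probe sets. Permutation tests were two-sided with 100000 resamples (scipy 1.17.1 and numpy 2.4.6 in Python 3.11.15); figures were drawn with matplotlib 3.10.9. The fit on ACAA2 was also run on simulated data with independent noise for each probe set and built-in slopes. That simulation did not cover the fits on ACADM or the score, variation shared between probe sets, or sibling livers.

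Named genes are all members, the 2 most positive and 2 most negative genes by r with the score in each pathway list, and the 5 most positive and 5 most negative for ACAA2 and for ACADM outside the members. Further genes of a list are named where they passed a test, and PPARA, outside this rule, was named after its values were seen. The members, lists and tests were chosen with earlier results of these data known. Other filters, scalings, covariates, ranks, probe sets and livers were tried. Growth group, sex and dam were not mapped, so the mixed model of the study was not run. No sequences or coordinates are given.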

Additional observations from a re-analysis of the deposited data

How the results depend on the processing

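Counts of probe sets that varied with ACAA2, ACADM and the score were 37, 918 and 315, and they depended on the setting. For ACAA2 the count was 56 at a limit of 5, 40 at a limit of 7 (32 rising and 8 falling), 90 with aligned array medians, 111 at an adjusted p under 0.1, 74 without the 2 livers farthest on the first principal component, 22 without the 2 farthest on ACAA2 and 0 in limma on ranks, where 856 had an unadjusted p under 0.05. For ACADM it was 468 at a limit of 7, 319 without the 2 farthest on the component, 246 without the 2 farthest on ACADM and 75 with the component as a covariate. For the score these 4 settings gave 198, 122, 144 and 63, no filter gave 144, ranks 97 and an adjusted p under 0.1 gave 650.

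The following were added after the data were seen. Leaving out each liver in turn gave 9 to 91 probe sets for ACAA2, the lowest without fetus 360 and the highest without fetus 281, 536 to 1011 for ACADM, the lowest without fetus 312, and 150 to 528 for the score, without fetuses 370 and 281. Without fetuses 274, 311 and 312 the counts were 70, 402 and 163. In 1 fit of ACAA2 and ACADM, 1 probe set varied with ACAA2, with no gene symbol in the annotation, and 1002 with ACADM.

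The r of ACADL and ACADSB with ACADM stayed positive in every setting run and lost its call only with the component as a covariate. Their calls with the score were also lost with no filter (limma adjusted p = 0.152 and 0.115) and without the 2 livers farthest on the score (0.0883 and 0.089), ACADL without fetuses 274, 311 and 312 (0.0733), and ACADSB with its probe set of largest SD (0.0845). That probe set, SNOWBALL_047625_st, lay below the limit in every liver. With ACADM it passed when placed among the filtered probe sets (limma adjusted p = 0.0211) but not in the fit of all probe sets (0.0956). ACADM lost its call in the fit on ACAA2 with no filter (0.151), on ranks (0.133) and without the 2 livers farthest on ACAA2 (0.071).

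Values that were never called changed sign. The r of ACADVL with ACAA2 became -0.0514 with ACADM in the fit, -0.0803 with the component, -0.0998 as the mean of all probe sets, -0.131 on ranks, -0.0015 without the 2 livers farthest on the component and -0.0183 without the 3 fetuses. Its r with ACADM became 0.311 with the component, 0.0268 as the mean, and 0.0047 and 0.0109 without those livers. Its r with the score became -0.185, -0.0697, -0.0033 and -0.0157 in these settings and -0.0765 on ranks. Leaving out 1 liver gave ACADVL -0.0756 to 0.0987 with ACAA2, -0.170 to 0.0863 with ACADM and -0.0734 to 0.148 with the score. HADHA with ACAA2 became 0.065 with ACADM in the fit, 0.0093 without the 3 fetuses and -0.165 to 0.0329 with 1 liver left out. HADHB with ACADM became 0.0734 with the component, and ACADL and ACADSB with ACAA2 became 0.449 and 0.123 with ACADM in the fit. The cause was not tested. No paired analysis was possible because dam and sibling pair of each fetus were not mapped.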
